A study of Mus musculus with 8 samples.

Results

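The barcodes described here, from autochthonous mouse lung tumors, are labelled Retnlg Hdc neutrophils of mature type. Of the 3894 cell barcodes with at least 200 genes, 605 were chosen as members. Few members of Tumor 1 carried a Retnlg UMI, as described below. The choice used measured counts of unique molecular identifiers (UMIs, each 1 captured RNA molecule). A member carried at least 2 UMIs of the neutrophil genes Csf3r, G0s2, Clec4d and Cxcr2 in sum (called N here), at least 2 UMIs of Retnlg, Asprv1, Hdc, Trpm2 and Lcn2 in sum (called R), more R than T, and no UMI of the macrophage complement genes C1qa, C1qb and C1qc. T is the sum of Siglec5, Ffar2, Entpd3, Rab15, Tarm1, Gpr84 and Il23a, genes of the other neutrophil class, in which T was at least 2 and above R. That other class, called Siglec5-type, held 608 barcodes, and 331 of the 1544 barcodes that passed the N and C1q conditions fell in neither class.

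The data came from 2 chimeric KP mice, made by injecting embryonic stem cells (C57BL/6) that carry p53 fl/fl and a Cre-activated oncogene into blastocysts of albino C57BL/6 mice. In every sample tumors had been started in the lung at 12 weeks of age by intratracheal adenovirus that carries Cre under the SPC promoter of alveolar type II cells, and were collected 16 weeks later. The recombined cells are therefore epithelial. Whether the neutrophils around them came from the injected cells or from the blastocyst was not tested. Each mouse gave 1 tumor (Tumor 1 and Tumor 2). Tumor slices were loaded with the caged dye calcein NVOC, the edge was uncaged with 405 nm light, and photoactivated live cells were sorted as the Healthy/Tumor Border, while the Whole Tumor arrays held cells of the same tumor with no photoactivation. All cells were profiled by Seq-Well, which captures single cells with barcoded beads in nanowells. Each tumor had 1 Border library and 3 Whole Tumor arrays.

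Neutrophils leave the bone marrow as short-lived, non-dividing cells that carry ready-made granules, respond to chemoattractants through receptors such as CXCR2, and make IL-1 beta and chemokines when stimulated. S100A8 and S100A9 form calprotectin, the main cytosolic protein of these cells. Retnlg encodes a resistin-like secreted protein of mouse neutrophils, Hdc the enzyme that makes histamine, Lcn2 the siderophore-binding granule protein lipocalin 2, Trpm2 a calcium channel opened by oxidative stress, and Asprv1 a retroviral-like protease. In lung tumors, neutrophils that express Siglec-F (the Siglec5 gene in this annotation) are known as a long-lived class that differs from the cells of blood.

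The label genes lie on several chromosomes of the mouse genome (GRCm38.p6, RefSeq). Retnlg spans chr16:48872608-48874498, Hdc chr2:126593659-126624025, Lcn2 chr2:32384637-32387739, Asprv1 chr6:86628174-86629710 and Trpm2 chr10:77907722-77969909. S100a8 at chr3:90669071-90670034 and S100a9 at chr3:90692630-90695721 are neighbors. The 250 bases upstream of the annotated starts are shown for a pair of label genes, picked because they hold C/EBP letters, and for 3 genes that were higher in members at the Tumor 1 Border and whose windows were picked because they hold kappa B letters. Capitals mark matches, on either strand, to TTGCNNAA (a C/EBP core), GGG, any 2 bases and TTTCC (a kappa B site) or TGANTCA (an AP-1 site), and the sequences run 5′ to 3′ on the strand of the gene. No 2 of these marked matches overlap. Tnfaip3 has 2 annotated starts, and the window of the one not shown held none of these letters. The windows of Tnf, Ccl3, Dusp1, Slpi, Ptgs2 and Cd274, which were higher at the same Border, held no kappa B letters.

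Retnlg, chr16:48872358-48872607, plus strand, 1 C/EBP core:
Retnlg: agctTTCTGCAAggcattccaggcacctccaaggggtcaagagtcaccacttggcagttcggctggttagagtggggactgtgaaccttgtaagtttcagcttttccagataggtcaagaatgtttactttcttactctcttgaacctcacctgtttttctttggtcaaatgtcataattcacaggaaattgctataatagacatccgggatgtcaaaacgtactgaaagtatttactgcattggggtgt
S100a9, chr3:90695722-90695971, minus strand, 1 C/EBP core:
S100a9: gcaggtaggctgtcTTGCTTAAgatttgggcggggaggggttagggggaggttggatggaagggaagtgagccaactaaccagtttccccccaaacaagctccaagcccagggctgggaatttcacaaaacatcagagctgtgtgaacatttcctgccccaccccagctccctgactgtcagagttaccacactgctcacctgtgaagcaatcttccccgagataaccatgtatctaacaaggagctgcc
Cxcl2, chr5:90903649-90903898, plus strand, 2 kappa B matches:
Cxcl2: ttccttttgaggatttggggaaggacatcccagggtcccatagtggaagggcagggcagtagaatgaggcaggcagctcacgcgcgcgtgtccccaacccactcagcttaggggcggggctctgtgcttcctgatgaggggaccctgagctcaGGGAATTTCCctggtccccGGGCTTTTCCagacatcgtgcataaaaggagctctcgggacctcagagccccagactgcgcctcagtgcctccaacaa
Nfkbia, chr12:55492648-55492897, minus strand, 1 kappa B match:
Nfkbia: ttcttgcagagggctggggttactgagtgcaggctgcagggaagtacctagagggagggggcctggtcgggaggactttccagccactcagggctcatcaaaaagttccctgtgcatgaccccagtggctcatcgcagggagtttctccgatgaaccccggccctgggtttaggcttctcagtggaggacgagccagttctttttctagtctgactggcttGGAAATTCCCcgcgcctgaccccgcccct
Tnfaip3, chr10:19015411-19015660, minus strand, 1 kappa B and 1 AP-1 match:
Tnfaip3: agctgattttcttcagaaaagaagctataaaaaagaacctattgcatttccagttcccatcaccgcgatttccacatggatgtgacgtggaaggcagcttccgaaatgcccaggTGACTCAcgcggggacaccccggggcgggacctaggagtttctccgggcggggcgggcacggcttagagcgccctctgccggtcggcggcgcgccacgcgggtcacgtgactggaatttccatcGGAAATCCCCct

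Of 32851 annotated windows of the same length, 1.41% held the kappa B letters, 9.56% the C/EBP letters and 6.75% the AP-1 letters. Among the 175 genes with a window that were higher in members at the Border of Tumor 1, 9 (5.14%) held the kappa B letters, against 64 (2.44%) of the 2621 fitted genes with a window. Of the 8 label genes, Retnlg, Lcn2 and S100a9 held the C/EBP letters, Asprv1, Hdc, Trpm2, S100a8 and Cxcr2 did not, and none held the kappa B letters. The windows of Hdc and Cd274 lie inside the spans of these genes, so the sequence upstream of the outer ends of both was not searched. These are matches of letters in a window and were not tested.

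Whether the members were neutrophils was checked with markers of other cells, given as the summed level of each list in UMIs per 10000 UMIs of the members of a library. The 12 monocyte and macrophage genes of the list other than C1qa, C1qb and C1qc, which the rule sets to 0, summed to between 1.57 and 7.34 in the 8 libraries, against 3.10 to 253.7 in all other barcodes. Alveolar and cavity macrophage genes reached 13.7 in Tumor 1 Whole array 3, where 1 member held 27 of 29 UMIs of Saa3, and 1.02 to 5.74 elsewhere. Dendritic cell genes reached 6.55 at the Tumor 2 Border and at most 2.05 elsewhere. T and NK genes reached at most 0.828, with 7 of 13 genes at 0 in the members. Mast cells and basophils also use Hdc. Their 11 genes held 33 UMIs in members and summed to 0.0 to 1.68, against 0.380 to 1.28 in all other barcodes. In Tumor 1 Whole array 1 members stood above all other barcodes, at 1.68 against 1.02. Eosinophil genes held 19 UMIs in members and reached 1.96 in that array, against 0.278 in all other barcodes. Genes of marrow precursors, 11 in the list, held 69 UMIs in members and summed to at most 1.05, with 3 genes at 0. Of its primary granule genes, Mpo had 2 UMIs in all members and Elane had none. Its gene Mki67 had 10 UMIs in 5 members of the Tumor 2 Border. In Tumor 2 Whole array 3 it had 28 UMIs in 9 members, 19 of them in 1 member. Epithelial genes summed to at most 1.00 in 7 libraries and to 26.1 in Tumor 1 Whole array 2, where 1 member held all 69 UMIs of the surfactant gene Sftpb and 121 of the 125 UMIs of Sftpc found in Tumor 1 Whole Tumor members. Antigen presentation genes of MHC class II reached 33.1 at the Tumor 2 Border, where 1 member held 108 of 160 UMIs of H2-Ab1. Of 119 barcodes with at least 2 UMIs of B cell markers, 5 passed the rule, and 3 of the 57 barcodes called as doublets were members. No member shared its barcode sequence with another library.

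The label described the members of Tumor 2 better than those of Tumor 1. Retnlg, the first gene of the label, had a UMI in 254 of 439 members of Tumor 2 (57.9%) and in 11 of 166 members of Tumor 1 (6.63%), at median depths of 1849 and 2100 UMIs. Trpm2 was found in 46.0% and 11.4%. Hdc was the most widely found R gene in both tumors, in 93.2% of the Tumor 2 members and 71.1% of the Tumor 1 members. Lcn2 was found about equally often, in 40.5% and 41.6%, and Asprv1 in 34.4% and 27.1%. After thinning each member to 1000 UMIs, which left 340 and 152 members, Retnlg was found in 47.4% and 5.92%. In 114 B cell barcodes, which should lack these genes, Retnlg had a UMI in 0.877% and Hdc in 4.39%, at a median of 2214.5 UMIs. The 5 barcodes with B cell markers that passed the rule were left out of the 114. As the rule uses these genes, the shares in B cell barcodes can understate the background. The members of Tumor 1 were thus chosen mainly by Hdc and Lcn2. These shares are part of the choice and are given as a description.

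**Figure D1:**
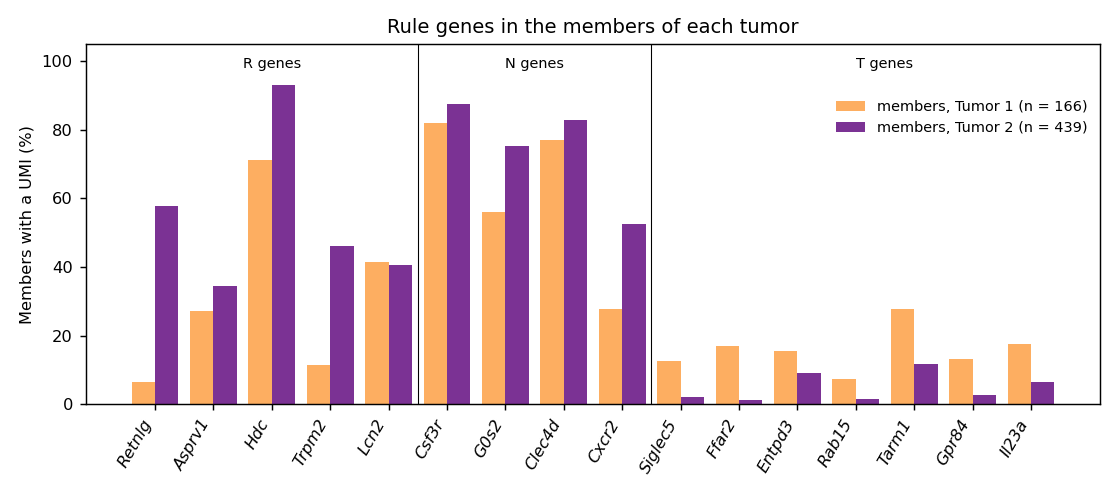
Share of members of Tumor 1 (n = 166) and Tumor 2 (n = 439) with at least 1 UMI of each gene that the rule uses, as bars in %. Retnlg stands at 6.63% in Tumor 1 and 57.9% in Tumor 2, while Hdc, Csf3r and Clec4d stand above 70% in both.

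Members of Tumor 1 also carried more of the T genes that the rule weighs against R. No T gene UMI was found in 29.6 to 64.7% of the members of each Tumor 1 library and in 46.8 to 88.7% of those of each Tumor 2 library, and 367 of 605 members had a T of 0. The highest shares without a T UMI, 64.7% and 88.7%, came from Tumor 1 Whole array 3 and Tumor 2 Whole array 2, at median depths of 1360 and 640 UMIs. Tarm1, which encodes an activating myeloid receptor, was found in 27.7% of Tumor 1 and 11.6% of Tumor 2 members, and Ffar2, a short-chain fatty acid receptor, in 16.9% and 1.37%. After thinning to 1000 UMIs Tarm1 was found in 13.2% and 7.35%, and Ffar2 in 10.5% and 0.882%. At the edge of the rule, 52 members had an R of exactly 2 and 52 further barcodes with an R of 1 and a T of 0 fell just outside it. Pooled over its cells, S100a9 stood at 4776 CPM (UMIs of the gene per 1000000 UMIs) in the former and 2942 in the latter, against 10490 in members with an R of 3 or more. Il1b, the gene of IL-1 beta, followed the same order, at 7252, 5744 and 14970. Cd74, an MHC class II chaperone gene of other cells, stood at 1443, 278.8 and 196.3, and 1 member held 110 of its 116 UMIs in members with an R of 2. The median depths of these barcodes were 1060, 872.5 and 2003 UMIs.

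Every label gene was higher in members than in all other barcodes in each of the 8 libraries. For the 6 label genes that the rule uses in sums, this was favored by the choice of members and is no test. Retnlg averaged 817 CPM in members and 8.49 in all other barcodes, over 8 library values. Its member levels were 127, 392, 36.4 and 534 in Tumor 1 (Border, then Whole arrays 1 to 3) and 783, 1772, 1694 and 1196 in Tumor 2. All 4 Tumor 2 libraries lay above all 4 Tumor 1 libraries. Hdc stood at 1316, 2098, 1320 and 1568 in Tumor 1 and at 1649, 2639, 3592 and 3410.5 in Tumor 2. Its levels ran higher in the Tumor 2 Whole arrays than in any Tumor 1 library.

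The calprotectin genes were not used by the rule. S100a8 averaged 3410 CPM in members, 1176 in Siglec5-type and 399 in all other barcodes. Its member levels were 2358.5, 2280, 2976 and 1301 in Tumor 1 and 2003, 6894, 4789 and 4675 in Tumor 2. S100a9 averaged 9026 in members, 4228 in Siglec5-type and 1314 in all other barcodes. For both genes the 3 Whole arrays of Tumor 2 stood apart at the top, and the Tumor 2 Border fell within the range of Tumor 1. Members lay above Siglec5-type barcodes for S100a8 and S100a9 in 7 of 8 libraries, and for Cxcr2 in 6.

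**Figure D2:**
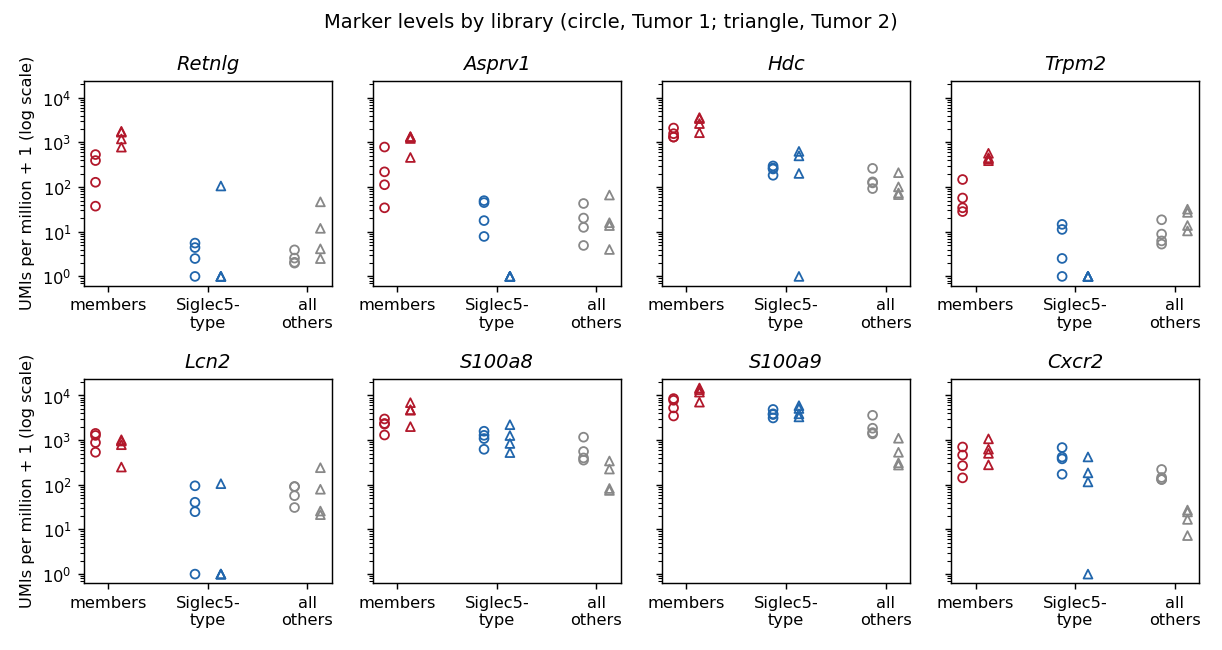
Level of the 8 label genes in each library, in CPM plus 1 on a log scale, for members, Siglec5-type barcodes and all other barcodes. Circles are Tumor 1 and triangles Tumor 2. Retnlg, Asprv1, Hdc, Trpm2, Lcn2 and Cxcr2 chose the classes, while S100a8 and S100a9 did not.

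Across all genes, 206 of 6033 (3.41%) were at least 2-fold higher in members than in all other barcodes and higher in all 8 libraries, and 1001 (16.6%) were at least 2-fold lower in this way, with a median ratio of 0.753 over all genes. Ratios compare mean CPM plus 10, and no test was made because the rule chose the members on this contrast. Outside the rule genes the largest ratios belonged to Slfn4, an interferon-inducible Schlafen gene (8.38), S100a8 (8.36), the sphingomyelin synthase gene Sgms2 (7.44), S100a9 (6.82) and Cpne2 (6.73). They were followed by Sh2d3c (6.61), Irg1, whose enzyme makes itaconate (6.48), Trem3 (6.43), the Myc antagonist gene Mxd1 (6.17), 1100001G20Rik (6.01) and Stx11, a syntaxin of granule release (5.78). Mxd1 had a UMI in 93.4% of members and in 14.04% of B cell barcodes. Niacr1, the receptor gene for nicotinic acid and hydroxybutyrate, was found in 92.4% of members and at 5352 CPM against 1255. Slfn4 was carried unevenly, since 97 of its 115 UMIs in Tumor 1 Whole array 1 came from 1 member.

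The lists are described here by their genes outside the rule, against 3.41% of all genes higher, 16.6% lower and a median ratio of 0.753. Of 11 neutrophil identity genes with enough UMIs, 4 were higher (Slc11a1, Grina, S100a8 and S100a9), with a median of 2.23. Pattern recognition and Fc receptor genes were higher in 8 of 22 (Cd14, Clec4e, Tlr6 and Trem3 among them) with a median of 2.01, and receptors and adhesion genes in 5 of 21 (Ccr1, Ccrl2, Fpr2, Itgal and Ptafr) with a median of 1.77. Immediate early genes were higher in 10 of 29 and 1 was lower, with a median of 1.59. Glycolysis and hypoxia genes were higher in 6 of 29, survival and apoptosis genes in 4 of 17, and genes of the Siglec-F program in 6 of 21. In the IL-1 family and inflammasome list 5 of 11 were higher (Casp4, Il18rap, Il1b, Il1rn and Nlrp3) and the adaptor gene Pycard was lower. Il1b averaged 12580 CPM against 2792. Of 20 cytokines and chemokines, Ccl3, Ccl4, Cxcl2, Cxcl3 and Ptgs2 were higher and Areg, Ccl5, Cxcl1 and Cxcl16 lower, a share of lower genes near that of all genes. Secondary granule genes, which are transcribed in the marrow, showed Olfm4 higher and Chi3l3 and Lyz2 lower of 10, with a median of 2.52.

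Transcripts of ribosomal proteins and of macrophages were low in members. Of 51 ribosomal protein genes none was higher and 35 were at least 2-fold lower in all libraries, with a median ratio of 0.364. Monocyte and macrophage genes outside the rule were lower in 7 of 11 (Apoe, Ccr2, Mrc1 and Fn1 among them, median 0.135), and the MHC class II genes Cd74 and H2-DMa were lower.

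Against the Siglec5-type barcodes, 75 genes (1.24%) were at least 2-fold higher and 49 (0.812%) lower in all 8 libraries, with a median ratio of 0.814. Only 29 Siglec5-type barcodes came from Tumor 2, with 2 of them in Whole array 2 (2709 UMIs). Each library has the same weight in these ratios, so that those few barcodes supply 4 of the 8 values behind each. Outside the rule, 1 of 11 neutrophil identity, 4 of 22 pattern recognition and none of 21 receptor and adhesion genes were higher in this way. Immediate early genes were higher in 2 of 29, IL-1 family genes in 1 of 11, glycolysis and hypoxia genes in 1 of 29 and survival genes in none of 17. In these lists most genes that were higher against all other barcodes did not pass against Siglec5-type. Cpne2 was the furthest above (ratio 12.3), followed by Chi3l1, a chitinase-like secreted protein gene (8.55), 1100001G20Rik (6.35), the lipopeptide receptor gene Tlr2 (6.28), Wfdc17 (5.74) and Adam8, a surface metalloprotease gene (5.67). Adam8 averaged 777 CPM in members and 129 in Siglec5-type. S100a6 stood at 221 against 42.4, and the iron and manganese transporter gene Slc11a1 at a ratio of 4.30. Genes below included Bicd2 (ratio 0.131), Ube2g2, Plxnc1 (0.301), the disulfide isomerase gene Pdia3 (0.324) and Cpt1a, whose enzyme brings fatty acids into mitochondria (0.328). Ube2g2 and Zfp592 lost this direction when both classes were chosen after thinning to 1000 UMIs.

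Members made up a very different part of the 2 tumors. In Tumor 1 they were 86 of 620 barcodes at the Border (13.9%, exact 95% interval 11.2 to 16.8%) and 27 of 449, 36 of 574 and 17 of 433 in the Whole arrays (6.01%, 6.27% and 3.93%). The Tumor 1 Border value lay above all 3 Whole arrays, by 8.47 points over their mean of 5.40% ± 1.29 (SD, n = 3). In Tumor 2 they were 62 of 506 barcodes at the Border (12.2%, 9.53 to 15.4%) and 78 of 328, 97 of 368 and 202 of 616 in the Whole arrays (23.8%, 26.4% and 32.8%). The Tumor 2 Border value lay below all 3 Whole arrays, by 15.4 points under their mean of 27.6% ± 4.64 (SD, n = 3). The shares at the 2 Borders were close to each other, and the tumors parted in the Whole arrays, by 22.2 points. A two-sided exact permutation test of the Whole arrays gave p = 0.1, the smallest that 3 against 3 can give. Intervals cover counting error only, and with 1 Border library per tumor the region and the library cannot be told apart.

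**Figure D3:**
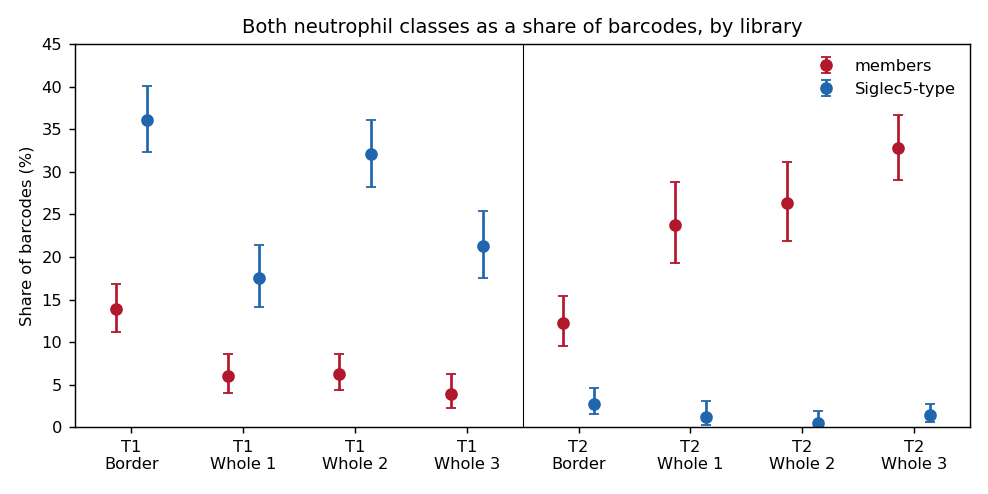
Members and Siglec5-type barcodes as a share of all barcodes with at least 200 genes in each library, in %, with exact 95% binomial intervals for counting error. Members rise from 3.93 to 6.27% in the Tumor 1 Whole arrays to 23.8 to 32.8% in those of Tumor 2, while Siglec5-type barcodes are at 17.6 to 32.1% and 0.543 to 1.46%.

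The makeup of the neutrophils themselves followed the tumor. Of barcodes that passed the N and C1q conditions, members were 21.9% at the Border and 18.5%, 12.2% and 10.6% in the Whole arrays of Tumor 1. In Tumor 2 they were 63.9% at the Border and 81.2%, 78.9% and 86.7% in the Whole arrays. The Whole arrays differed by 68.5 points between the tumors (two-sided exact permutation test, p = 0.1, the smallest possible). At the Tumor 2 Border the share was 18.4 points under the Whole mean of 82.3% ± 4.02 (SD, n = 3), and all 3 arrays were above it. Members were not equally deep, with a median of 640 UMIs in Tumor 2 Whole array 2 and 1360 to 2621.5 in the other libraries.

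At the Tumor 1 Border members were higher in chemokine genes, Tnf and genes of NF-kappa B signalling. The lists that hold these genes also summed higher in all other barcodes of that library, taken as a pool. Cytokines and chemokines summed to 568.9 per 10000 UMIs of members at the Border and to 168.7, 186.3 and 177.5 in the Whole arrays, against 377.9 and 67.2, 63.6 and 68.1 in all other barcodes. The NF-kappa B list summed to 192.0 against 72.6, 82.0 and 95.8 in members and to 161.1 against 42.2, 44.95 and 41.1 in all other barcodes. Immediate early genes summed to 422.5 against 189.0, 190.5 and 240.3 in members. In all other barcodes they summed to 266.1 against 91.5, 99.0 and 92.4. Iron and oxidative stress genes summed to 638.4 against 371.2, 321.5 and 401.4 in members. In all other barcodes they summed to 425.6 against 194.9, 215.1 and 213.4. For all of these lists the Border lay above every array of its tumor, in members and in all other barcodes, which include the Siglec5-type. Neutrophil identity genes also summed higher in all other barcodes at this Border, to 103.0 against 50.2, 55.1 and 58.1. The makeup of that pool thus differed between the libraries, and a rise in cells other than neutrophils was not tested. In the fits of region below each Border is 1 library, so the spread comes only from the Whole arrays. The p-values of these fits do not cover variation between Border samples. In a fit of summed UMIs across 3416 genes (edgeR quasi-likelihood test, Benjamini-Hochberg adjusted p under 0.05), 288 genes (8.43%) differed between the Border and the Whole arrays of Tumor 1, 230 (6.73%) being higher and 58 (1.7%) lower at the Border. Members' Cxcl2, the ligand gene of CXCR2, stood at 28680 CPM at the Border and at 7763, 8300 and 10080 in the Whole arrays. The log2 change was 2.34 ± 0.31 (SE, adjusted p = 2.58e-06). Ccl3, a ligand gene of CCR1, stood at 10870 against 1860, 3522 and 1969 (2.72 ± 0.35, adjusted p = 1.89e-06). Tnf stood at 1713 against 252, 391 and 200 (3.10 ± 0.38, adjusted p = 1.39e-06). For each of these genes the Border lay far above the highest array.

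Of 18 tested cytokine and chemokine genes, 12 were higher and none lower (Ccl3, Ccl4, Ccl6, Ccl9, Cxcl1, Cxcl2, Cxcl3, Il23a, Osm, Ptgs2, Tgfb1 and Tnf), with a list median of 2.40 on the log2 scale against -0.08 for all genes. Il23a is a gene of the rule, and 11 of the 17 others passed. Ccl9 had the largest change of the group, 4.24 ± 0.79 (adjusted p = 4.62e-04), on 51 UMIs from 9 Border members. Immediate early genes, which cells transcribe within minutes of a stimulus, were higher in 16 of 28 and lower in none, with a median of 1.31. Dusp1, a phosphatase gene that shuts off MAP kinases, stood at 3342 against 769, 510 and 934, and rose by 2.85 ± 0.33 (adjusted p = 4.37e-07). Inhibitors, subunits and targets of NF-kappa B, taken as 1 list, were higher in 8 of 20, or 8 of 19 outside the rule (Icam1, Marcksl1, Nfkbia, Nfkbid, Nfkbiz, Sod2, Tnfaip3 and Traf1) and lower in none, with a median of 1.22. Nfkbia, the inhibitor gene with 1 kappa B match in the window shown above, stood at 6278 against 1511, 1847 and 2836 (2.25 ± 0.33, adjusted p = 1.06e-05). Tnfaip3, which encodes the ubiquitin-editing enzyme A20, stood at 3714 against 727, 1147 and 534 (2.73 ± 0.35, adjusted p = 1.95e-06).

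Other genes were higher in members of the same Border. Slpi, a secreted inhibitor of leukocyte proteases, stood at 1262 CPM against 210, 118 and 33.4 (log2 change 3.81 ± 0.43, edgeR adjusted p = 4.37e-07). The checkpoint ligand gene Cd274 stood at 4135 against 1287, 1256 and 1068 (2.37 ± 0.32, adjusted p = 4.87e-06). Both separated the Border from every array. Glycolysis and hypoxia genes were higher in 8 of 29 (Pfkfb3, Slc2a1, Ldha and Egln3 among them), and iron and oxidative stress genes in 6 of 19 (Hmox1, Fth1 and Ftl1 among them). Suppression and checkpoint genes were higher in 5 of 15 (Cd274, Hmox1 and Ptgs2 among them). None of the 17 tested interferon-stimulated genes passed in either direction.

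Fewer genes fell at that Border. Cst3, a cysteine protease inhibitor gene, stood at 48.9 CPM against 336, 328 and 501 (log2 change -2.30 ± 0.68, edgeR adjusted p = 0.0298). The mitochondrial genes mt-Co1, mt-Cytb, mt-Nd4 and mt-Nd5 were lower of 9 tested, and the listed mitochondrial genes summed to 451.1 per 10000 UMIs of members at the Border and to 708.2, 720.9 and 580.0 in the arrays. Their sum was also lowest at the Border in all other barcodes (412.3 against 870.3, 707.4 and 930.6) and in Siglec5-type barcodes (358.4 against 454.5, 468.9 and 488.9). The largest fitted falls, of Sftpc, Sftpb and the matrix gene Cyr61, came from single members of Whole array 2. The part of this epithelial signal in the fit was not tested.

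The split of these calls leaned on scaling. With library size alone in place of trimmed-mean scaling, 60 genes were higher and 158 lower, and the median log2 change of all genes moved from -0.08 to -0.75. Cytokines and chemokines then had 11 higher and none lower, immediate early genes 8 and none, NF-kappa B genes 4 and none, glycolysis and hypoxia 1 and none, iron and oxidative stress 1 and none, and suppression and checkpoint 2 and none. The cytokine and NF-kappa B lists include genes of the rule. Of the genes named for this Border, Slc2a1, Ldha, Egln3, Hmox1, Fth1, Ftl1, Tgfb1, Fos, Icam1, Nfkbid, Sod2 and Traf1 kept a positive change but lost their call. With members that carried no T gene UMI (chosen after the data were seen) 24 genes passed, all higher, and with members chosen after thinning 46 passed.

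At the Border of Tumor 2 no list had more than 2 higher genes with trimmed-mean scaling. (With library size alone, the Siglec-F program had 5 of 27, genes of the rule included, and MHC class II 3 of 4.) Of the 3416 genes, 65 (1.9%) passed the same edgeR test, 39 (1.14%) of them higher and 26 (0.761%) lower at the Border. B4galt1, a galactosyltransferase gene, stood at 429 CPM at the Border against 43.4, 73.0 and 42.2 in the Whole arrays (log2 change 2.94 ± 0.46, adjusted p = 6.67e-04). Hk2, whose hexokinase opens glycolysis, stood at 542 against 75.9, 0.0 and 84.3 (2.74 ± 0.52, adjusted p = 0.00344). The carbonic anhydrase gene Car4 stood at 218 against 27.1, 58.4 and 24.9 (2.60 ± 0.56, adjusted p = 0.0101). All 3 genes separated the Border from the arrays of this tumor, at levels that lay near or under those of the Tumor 1 libraries. Il1a rose by 2.25 and the DAP12-coupled receptor gene Clec5a by 2.02.

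A few of these Border calls hung on 1 cell. In 9 of the 39 higher genes more than 50% of the Border UMIs came from 1 member, against 2 of 230 at the Tumor 1 Border. The lactoferrin gene Ltf (97 of 118 UMIs in 1 member) and H2-Ab1 (108 of 160) were among them, and both fitted changes turned negative when members with any T UMI were left out. Markers of other cells were called here, with 2 of 4 MHC class II genes (H2-Ab1 and H2-Eb1) and 2 of 4 genes of alveolar and cavity macrophages (Car4 and Mmp12) higher. For H2-Eb1 1 member held 71 of 93 Border UMIs, and for Mmp12 1 member held all 30, while 13 members shared the 29 UMIs of Car4.

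Genes that fell at the Tumor 2 Border were spread over lists, with 3 of 16 neutrophil identity genes (2 of 12 outside the rule), 2 of 28 immediate early genes, 2 of 29 glycolysis and hypoxia genes and 1 of 18 heat shock genes among them. Il1b stood at 9338 CPM against 19300, 23950 and 18680 in the Whole arrays (log2 change -1.36 ± 0.36, edgeR adjusted p = 0.0346). S100a8 fell by 1.68 ± 0.42 (adjusted p = 0.0264). Fos, a subunit gene of AP-1, stood at 821 against 3122, 3592 and 2512 (-2.12 ± 0.41, adjusted p = 0.00432). The inducible HSP70 gene Hspa1b stood at 625 against 2894, 1942 and 3434 (-2.38 ± 0.45, adjusted p = 0.00344). The Border was the lowest of the 4 libraries in each of these. Selplg, the gene of the P-selectin ligand, fell by 2.14, and the membrane protein gene Ifitm1 fell by 2.19. Cxcl2 stood at 20150 against 22440, 14790 and 17210, with a log2 change of -0.08 ± 0.34 (adjusted p = 0.937).

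These calls varied with the setting. With library size alone 91 genes were higher and 17 lower at the Tumor 2 Border, Il1b, Ifitm1 and Dusp1 kept a negative change but lost their call (adjusted p = 0.0603, 0.0603 and 0.0567), DESeq2 called 12 and 36, and leaving out 1 array of either tumor gave between 19 and 149 calls.

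**Figure D4:**
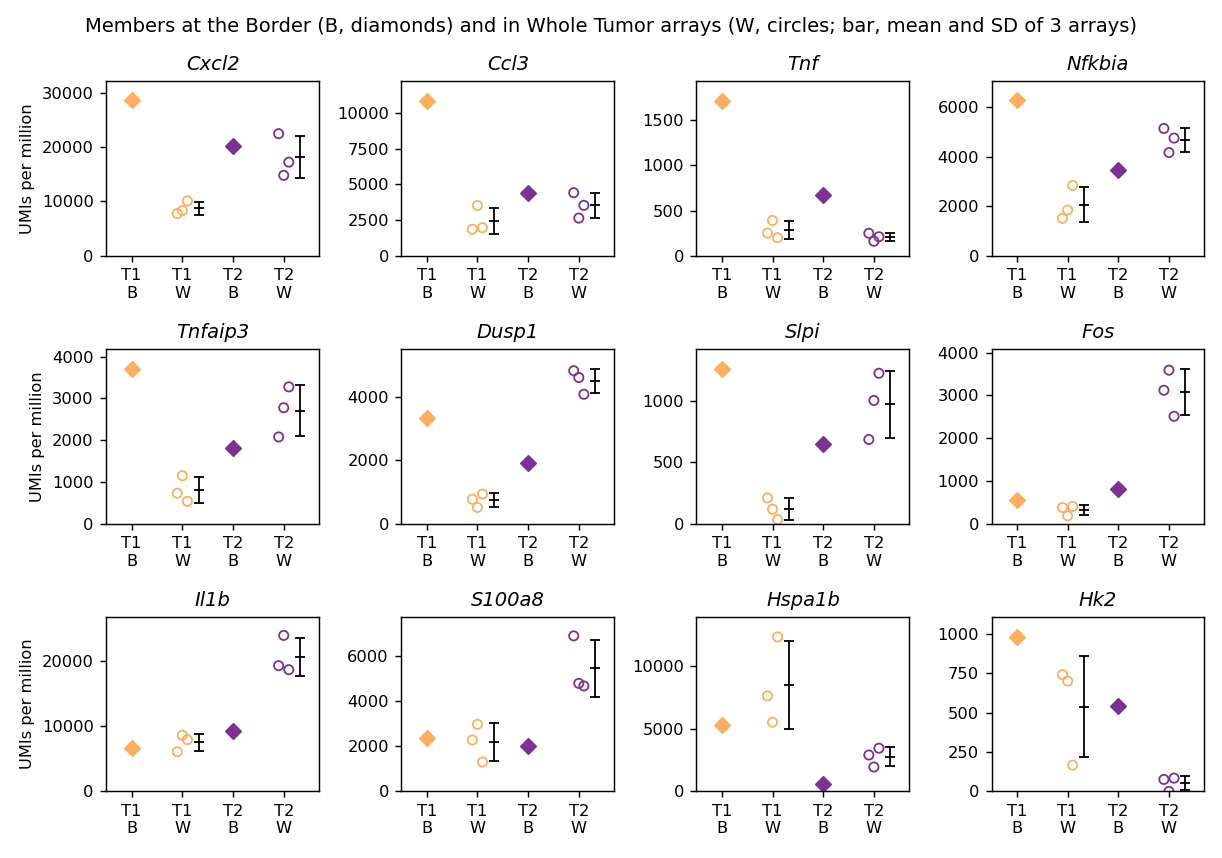
Levels of 12 genes in members of each library, in CPM, with the Border as a diamond and each Whole array as a circle (mean and SD of the 3 arrays beside them). Cxcl2, Ccl3, Tnf, Nfkbia, Tnfaip3, Dusp1 and Slpi are highest at the Border within Tumor 1, while Fos, Il1b, S100a8 and Hspa1b are lowest at the Border within Tumor 2.

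The Border change itself differed between the tumors in 206 of 3416 genes (6.03%), of which 159 (4.65%) had a lower signed log2 change in Tumor 2 than in Tumor 1 and 47 (1.38%) a higher one (edgeR test of the difference of both changes). Immediate early genes were lower in 14 of 28 and higher in none. Dusp1 differed by -4.32 ± 0.53 on the log2 scale (adjusted p = 2.99e-06), having risen by 2.85 in Tumor 1 and fallen by 1.47 in Tumor 2. Fos differed by -3.61 ± 0.57 (adjusted p = 8.71e-05), with changes of 1.49 and -2.12. Cytokines and chemokines were lower in 6 of 17 outside the rule (Ccl3, Ccl6, Cxcl2, Cxcl3, Osm and Ptgs2), and Cxcl2 differed by -2.42 ± 0.48 (adjusted p = 0.00159). Slpi differed by -4.61 ± 0.65 (adjusted p = 2.12e-05) and Ptgs2, the gene of cyclooxygenase 2, by -4.12 ± 0.58 (adjusted p = 2.12e-05). The difference for Tnf, -1.68 ± 0.59, did not pass (adjusted p = 0.0816). Both changes enter each difference, each with 1 Border library, so it holds what is said of them above. Its p-value covers only the spread between Whole arrays, and region and library cannot be told apart. With library size alone 8 immediate early genes were lower and 1 higher, 6 of all 18 cytokines and chemokines were lower and 1 higher, 223 of all genes were higher and 48 lower, and the median of all genes moved from 0.11 to 1.05.

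The Whole arrays compare members of the tumors with 3 libraries on each side, against 1 and 3 for region, and the number of calls is not on the same footing. Of 3416 genes, 890 (26.1%) passed, 533 (15.6%) higher and 357 (10.5%) lower in Tumor 2 (edgeR, as above). The mice differed in sex as well: Xist stood at 266, 710 and 1001 CPM in the Tumor 1 arrays with no UMI in Tumor 2, and the Y gene Ddx3y was higher in Tumor 2 by 4.97 ± 0.59 (adjusted p = 4.43e-08). Each tumor is 1 mouse, so mouse, sex and tumor cannot be told apart. The arrays of a tumor are repeated captures of 1 cell suspension, and p-values measure only the spread between arrays.

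Neutrophil identity genes were higher in Tumor 2 in 14 of 16 and lower in none, or 10 of 12 outside the rule. Trem1, the amplifying receptor gene of myeloid cells, stood at 490, 428 and 300.3 in Tumor 1 and at 1935, 2000 and 1962 in Tumor 2 (log2 change 2.69 ± 0.29, adjusted p = 6.20e-09). Tertiary granule and secreted genes were higher in 8 of 12 (Adam8, Fpr1, Prok2 and Slpi among them) and lower in none. The neutrophil collagenase gene Mmp8 stood at 0.0, 9.10 and 66.7 against 358, 277 and 211 (4.63 ± 0.65, adjusted p = 1.36e-06). S100a6, S100a8, S100a9 and S100a11 were all higher of 4 tested, S100a8 by 1.76 and S100a9 by 1.48. Receptors and adhesion genes were higher in 14 of 23, or 12 of 21 outside the rule (C5ar1, Fpr1, Cd44 and Itgb2 among them), while Csf2rb, Csf2rb2 and Icam1 were lower.

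Immediate early genes were higher in Tumor 2 in 19 of 28 and lower in none. Their summed level per 10000 UMIs was 189.0, 190.5 and 240.3 in members of the Tumor 1 arrays and 423.5, 408.4 and 409.7 in Tumor 2, and it was also higher in Tumor 2 in all other barcodes (91.5 to 99.0 against 205.9 to 266.6) and in B cell barcodes (14.95 to 65.8 against 190.5 to 231.1). Inflammatory lists went both ways, with 5 of 8 IL-1 family genes higher and Il1a and Il1rn lower, 7 of 18 cytokines and chemokines higher and Csf1 and Hbegf lower, and 8 of 19 NF-kappa B genes outside the rule higher and Icam1 lower. Il1b stood at 6085, 8627 and 7942 CPM in Tumor 1 and at 19300, 23950 and 18680 in Tumor 2 (log2 change 1.93 ± 0.24, edgeR adjusted p = 1.77e-07). Irg1 stood at 574, 655 and 467 against 4845, 4804 and 4514 (3.49 ± 0.28, adjusted p = 2.60e-11). Fos stood at 378, 182 and 400.4 against 3122, 3592 and 2512 (3.84 ± 0.32, adjusted p = 3.28e-11). Cd93, a C-type lectin-like receptor gene, stood at 83.9, 0.0 and 66.7 against 683, 1154 and 818 (4.89 ± 0.50, adjusted p = 2.86e-09). Every one of these genes separated the arrays of the tumors. The genes Nlrp3, Osm and Cxcl2 rose by 2.71, 4.84 and 1.56.

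The list of the Siglec-F program went both ways with trimmed-mean scaling. Of its 27 tested genes, 13 were lower in Tumor 2 and 4 higher, or 9 and 4 (Ccl3, Fth1, Pla2g7 and Tgm2) of 20 outside the rule. Car4 fell by 3.07, the tetraspanin gene Cd63 fell by 1.89, and Clec5a fell by 1.85 on the log2 scale. Other genes were also lower in Tumor 2. The acid phosphatase gene Acp5 stood at 602, 673 and 400.4 in Tumor 1 and at 5.42, 14.6 and 7.66 in Tumor 2 (log2 change -5.61 ± 0.51, edgeR adjusted p = 2.68e-10). B4galt1 stood at 616, 792 and 701 against 43.4, 73.0 and 42.2 (-3.41 ± 0.38, adjusted p = 1.55e-08). Il1a fell by 2.68, the EGF receptor ligand gene Hbegf fell by 3.05, Hk2 fell by 2.60 and the growth factor gene Csf1 fell by 1.88. Heat shock genes were lower in 9 of 18 and higher in none, and Hsph1 stood at 1455, 1547 and 3203 against 331, 58.4 and 324 (-2.40 ± 0.35, adjusted p = 2.42e-06). Mitochondrial genes were lower in 7 of 9 and ribosomal protein genes in 6 of 26. All 6 tested epithelial genes were lower, which goes with the epithelial level of 26.1 per 10000 UMIs in Tumor 1 Whole array 2, and Sftpb (69 of 69 UMIs), Scd1 (95 of 102) and Edn1 (37 of 47) came mostly from single members of Tumor 1; the part of such cells in these calls was not tested.

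With library size alone the Whole arrays gave 294 higher and 849 lower genes in Tumor 2, and the median log2 change of all genes moved from -0.18 to -0.73. The neutrophil identity list then had 10 higher and none lower of 16, immediate early genes 11 and none of 28, and heat shock genes none and 15 of 18. The Siglec-F program had 1 and 17 of 27, and receptors and adhesion genes 7 and 4 of 23. Cytokines and chemokines had 4 and 3 of 18, and ribosomal protein genes 1 and 14 of 26. The counts for the neutrophil identity, Siglec-F, receptor and cytokine lists include genes of the rule, whose levels the choice of members affected. Of the genes named, C5ar1, Cd44, Itgb2, S100a11, Ccl3, Fth1 and Pla2g7 kept a positive change but lost their call.

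**Figure D5:**
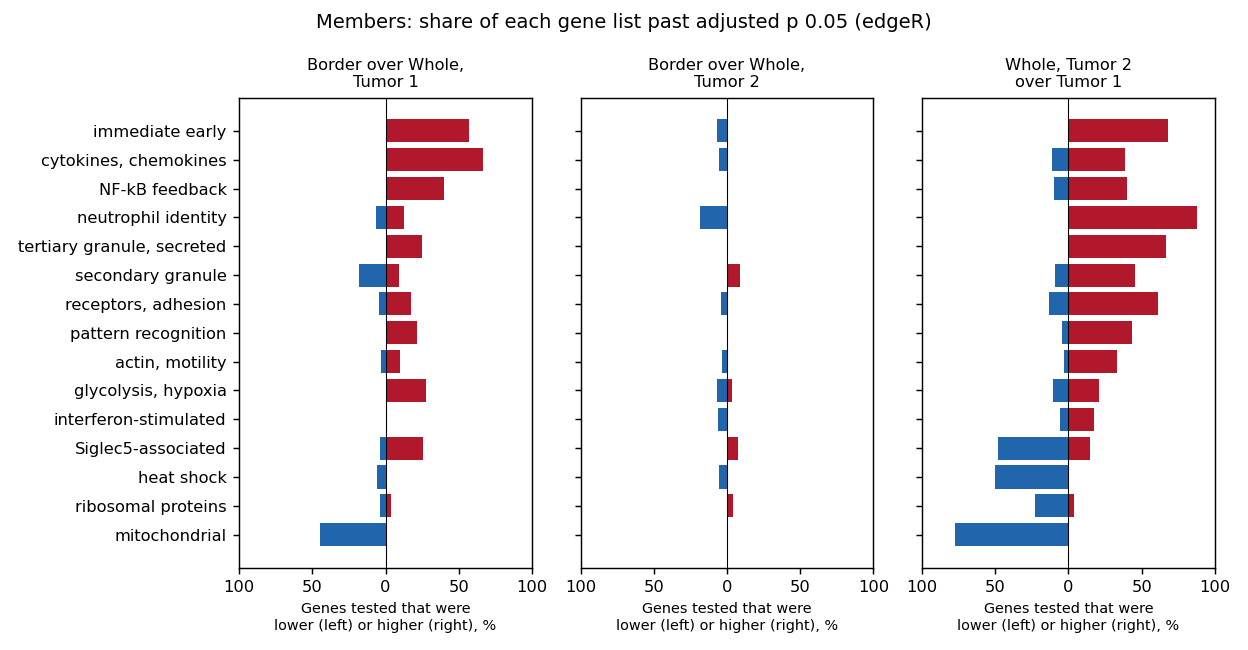
Share of the tested genes of each list, in %, that passed an adjusted p of 0.05 in members (edgeR), lower to the left and higher to the right, for the Border over the Whole arrays in each tumor and for the Whole arrays of Tumor 2 over Tumor 1. At the Tumor 1 Border 12 of 18 cytokines and chemokines (11 of 17 outside the rule) and 16 of 28 immediate early genes are higher. Between the tumors 14 of 16 neutrophil identity genes are higher in Tumor 2, or 10 of 12 outside the rule. Bars include genes of the rule where a list holds them. In the Siglec5-associated list 20 of the 27 tested genes lie outside the rule.

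The Border changes of members were set against those of the Siglec5-type barcodes of the same libraries. In Tumor 1, Siglec5-type Cxcl2 stood at 19852 CPM at the Border against 3786, 3028 and 4271, and their Tnf at 4005 against 403, 248.5 and 359. Their Dusp1 stood at 1914 against 328, 413 and 376. The difference between the classes in the Border change was -0.43 ± 0.90 for Cxcl2, -0.78 ± 0.78 for Tnf and 0.16 ± 0.81 for Dusp1 (log2 scale, SE). No gene of 5037 passed the edgeR test of this difference in either tumor (0.0%), with 133 genes in Tumor 1 and 418 in Tumor 2 at an unadjusted p under 0.05, and DESeq2 called 0 and 5. The test had little reach, since 4-fold differences put into simulated data were recovered in 0.4% and 0.1% of genes. The smallest adjusted p-values were 0.0974 in Tumor 1 (Edn1 and Ccl9) and 0.0539 in Tumor 2 (Mmp9 and Osgin1).

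Members also varied among themselves within a library. After thinning to 1000 UMIs, 6 libraries held at least 20 members that could be thinned. The variance over the mean of each gene was averaged over those of them that held a value for it. The median of this average over 2861 genes was 1.23. The ribosomal locus Gm26924 (45.2) and the mitochondrial ribosomal RNAs mt-Rnr2 (30.3) and mt-Rnr1 (25.5) were among the 4 most variable genes. Of the coding genes, Hspa1a led with 28.3 and was found in 45.5% of thinned members, followed by the thrombospondin gene Thbs1 (23.5, found in 59.96%), S100a9 (14.3), Hspa1b (13.4), the ferritin gene Fth1 (12.2) and Il1b (11.6). Ngp, a secondary granule gene of late marrow stages, had 11.2 and was found in 2.64% of members, with no value in Tumor 1 Whole arrays 1 and 2. At the Tumor 2 Border 1 member held 71 of its 73 UMIs. Interferon-stimulated genes had a median of 1 or 2 UMIs per thinned member in every library, and 1 member of Tumor 1 Whole array 1 reached 84.

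Members with and without a T gene UMI were compared for 34 genes outside the rule, of which 11 were higher with T in both tumors, 10 lower in both and 13 opposite between the tumors. In Tumor 1, 108 members with a T UMI and 58 without had pooled Hk2 levels of 959 and 381 CPM, and in Tumor 2 the 130 and 309 such members had 269 and 76.0. Car4 stood at 337 against 172 in Tumor 1 and at 104.5 against 30.4 in Tumor 2. Fos ran the other way, at 324 against 653 and at 1666 against 2899. S100a8 went opposite ways, at 2776 with T against 1479 in Tumor 1 and at 4229 against 5019 in Tumor 2. Within each T class, Fos was higher and Car4 and Hk2 lower in Tumor 2. T is a gene sum of the rule and depth enters it, so these are descriptions of pooled cells with no test.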

How the data were processed

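Single-cell RNA was measured in 8 Seq-Well libraries of 2 KP lung tumors. The authors aligned reads to mm10 (STAR 2.5.2b and bcl2fastq 2.17.1.14 in the submitters' processing notes), followed the Drop-seq protocol, collapsed reads by UMI and deposited, for each library, a table of raw UMI counts of genes in cell barcodes. Groups were taken from the sample labels. In all 8 tables the names of the cells give the opposite tumor number, and the labels were followed, since the number of barcodes in each labelled tumor and region is the one that the study's methods give for it. The tables held 4343 barcodes; 449 with fewer than 200 genes were left out, and 3894 were kept. Total UMIs per deposited library ranged from 405627 to 2029200, and members' summed UMIs from 29968 to 521911. No other filter was applied, and doublets called by Scrublet in scanpy 1.11.5 (1.46% of barcodes) were kept.

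Members and lists were chosen with earlier results of these data known. Levels are CPM, computed here as UMIs of a gene per 1000000 UMIs of the class in a library. Members' UMIs were summed per library and fitted with edgeR 4.0.16 (quasi-likelihood, trimmed-mean scaling, 4 residual degrees of freedom over 8 libraries), with p adjusted by Benjamini-Hochberg over all genes tested. DESeq2 1.42.0 was an alternative, as were other gates, filters and scalings and leaving out each array. The scripts were tested on simulated data, where edgeR recovered 35.8% of 4-fold changes at the Tumor 1 Border, 37.9% at the Tumor 2 Border, 7.7% for their difference and 60.4% between Whole arrays, with 2.84%, 4.43%, 8.29% and 3.24% of the calls false. Class shares were compared by exact permutation with scipy 1.17.1 in Python 3.11.15, and R was 4.3.3.

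Genes named were the rule and label genes, the 25 non-rule genes with the largest ratio against all other barcodes and the 15 each way against Siglec5-type (a UMI in at least 10% of the class, the same direction in every library), the 10 largest each way per edgeR comparison among those with at least 50 UMIs, the 10 most variable, and list members with the most UMIs. Other genes named as examples of their lists were picked after their values were seen. A few genes and alleles are not reported here.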

Additional observations from a re-analysis of the deposited data

Results flagged for a closer look

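The difference in the Border change between Tumor 2 and Tumor 1 was tested by the interaction of tumor and region in edgeR, and 206 genes passed an adjusted p of 0.05. The differences furthest above 0 on the log2 scale were those of Adamdec1 (14.18), Zfp260 (10.28), Srrt (8.519), Tacc1 (7.416), Scd1 (7.173), Csk (6.914), Emb (6.39), Eif5b (6.161), Usp24 (5.473) and Cct2 (5.355). Each Border is 1 library, so the test covers only the spread between Whole arrays. Several of these differences rest on libraries without a UMI. Adamdec1 had none at the Tumor 1 Border and none in the Tumor 2 Whole arrays, and Zfp260 none at the Tumor 1 Border, so that their fitted values depend on the prior count and are no measured fold. In Tumor 1 Whole Tumor members, 95 of the 102 UMIs of Scd1 came from 1 member.

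Furthest below 0 were Apbb3 (-6.813), the stefin gene Stfa2l1 (-5.684), the tissue factor gene F3 (-5.19), Dennd3 (-5.067), Ccdc126 (-4.978), Pfkfb3 (-4.924), whose enzyme drives glycolysis, the triglyceride synthesis gene Dgat2 (-4.848), Rdh12 (-4.686), Slpi (-4.614) and Zhx2 (-4.504). Pfkfb3 stood at 519 CPM at the Tumor 1 Border against 154, 63.7 and 133.5 in the Whole arrays, and at 136 against 472, 394 and 565 in Tumor 2, so that the Border was highest in Tumor 1 and lowest in Tumor 2. Apbb3 had no UMI in the Whole arrays of Tumor 1, and its fitted value is no measured fold.

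Among the 449 barcodes with fewer than 200 genes, which entered no comparison, 10 met the gene conditions of the rule. They were not added to the members.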

How the results depend on the processing

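The direction of the Border share held in both tumors under every alternative run, from 7.73 to 8.90 points in Tumor 1 and from -17.3 to -12.8 points in Tumor 2 without 1 array, and 13.1 points in Tumor 1 among barcodes with at least 500 genes. Between the Whole arrays, leaving out 1 array gave 19.7 to 24.2 points, and 66.3 to 70.9 among neutrophil-gated barcodes. Counts of genes moved more. At the Tumor 1 Border (288 genes) DESeq2 called 140, a fit of every gene with a UMI 175, barcodes with at least 500 genes 123, a gate after thinning to 1000 UMIs 46, members with a T of 0 24, and leaving out 1 array 201 to 330. At the Tumor 2 Border (65) library size alone gave 108, every gene with a UMI 23, at least 500 genes 20, an R of at least 3 35, thinning 30, a T of 0 1, and leaving out 1 array 19 (without Tumor 2 Whole array 2) to 149 (without Tumor 1 Whole array 3). The difference of both (206) became 135, 120, 49, 27 and 8 with DESeq2, every gene, at least 500 genes, thinning and a T of 0, and 144 to 291 without 1 array. The Whole arrays (890) gave 501 with DESeq2, 393 with thinning, 332 with a T of 0 and 597 to 903 without 1 array. The split of higher and lower calls also moved: the difference went from 47 and 159 to 26 and 23 with at least 500 genes and to 17 and 10 with thinning, the Whole arrays from 533 and 357 to 165 and 228 with thinning and to 527 and 155 with every gene, and the Tumor 2 Border from 39 and 26 to 19 and 1, 27 and 3 and 20 and 3 with at least 500 genes, thinning and every gene. The replicate numbers of the Whole arrays marked no pairing (correlations of same-numbered deviations -0.0149, -0.0237 and -0.00587), and with the replicate number as a block 565 of 1417 genes passed, 275 higher and 290 lower, while the shares kept their differences of 22.2 and 68.5 points. Against Siglec5-type barcodes 79 genes passed the fold after thinning, where the direction was asked of 7 libraries in place of 8. The ratios of Ube2g2 and Zfp592 turned to 1.02 and 1.00. The difference between the classes gave 5 genes with DESeq2 in Tumor 2, 0 to 1 in Tumor 1 and 0 to 12 in Tumor 2 without 1 array, 12 of them without Tumor 2 Whole array 2, and no fit was possible after thinning because that array then held no Siglec5-type barcode. With members of a T of 0, Myadm at the Tumor 1 Border turned to 1.22, and Ltf and H2-Ab1 at the Tumor 2 Border to -2.12 and -0.21. These are the named genes. Among all genes called in the main fit, 5 at the Tumor 1 Border and 4 at the Tumor 2 Border had a fitted change of opposite sign. Between the Whole arrays 9 did. The cause of these changes was not tested, apart from the fewer genes or barcodes that a setting leaves. Of the named genes and settings, 217 of 269 kept their call at the Tumor 1 Border, 182 of 279 at the Tumor 2 Border, 196 of 260 for their difference and 269 of 275 between the Whole arrays.

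Depth limits the members of Tumor 1 Whole array 3 most, where 17 members hold 29968 UMIs and a count of 0 allows a level of up to 100.1 CPM.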
